A study of Mus musculus with 32 samples.

Results

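The step from 8 to 10 days post partum (dpp) was examined in testicular germ cells of juvenile male C57BL/6J mice, by comparing the RNA of 5 mice aged 10 dpp with that of 3 mice aged 8 dpp. These 8 mice are the 2 youngest ages of a series of 28 juvenile mice, aged 8 to 18 dpp, and 4 adult samples of enriched pachytene and diplotene spermatocytes, 32 samples in all. The members were chosen by age label, and all 20368 genes of the gene table entered the comparison. The labels name no transgene, treatment, litter, day or batch. The sample titles of the 2 ages carry separate number ranges and different index sequences. Differences of litter or preparation thus cannot be told apart from age. The authors had set aside further mice of 8 dpp whose stained cells and RNA fitted poorly with their age group, and those mice are not used here, so the spread among the 3 mice of 8 dpp is that left after this choice. Each sample was the germ cell suspension from the testes of a single mouse, so a mouse is the replicate. It was made by digesting seminiferous tubules with the enzyme Liberase and washing off interstitial cells. The p-values of single genes rest on the spread between mice of an age, estimated over all 28 juvenile mice and not the 8 alone. Each adult sample, in contrast, was pooled from several mice of 9 weeks.

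In the first wave of spermatogenesis the germ cells of a litter move forward nearly in step. Undifferentiated spermatogonia give rise, under retinoic acid, to KIT-positive differentiating spermatogonia, which divide by mitosis and then become preleptotene spermatocytes that copy their DNA a last time and enter leptotene, the stage at which chromosome axes form and recombination starts. Sertoli cells surround and feed the germ cells within the tubule and are themselves still immature at these ages. Peritubular cells form the wall of the tubule, and Leydig, stromal, endothelial and blood cells lie outside it.

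Levels are given as TPM, a length-corrected abundance scaled to 1 fixed total per sample and thus a share of all its transcripts, so a gene's TPM can change because others do. TPM holds no read counts, and the depth of the libraries is unknown. The converted values summed to between 991092 and 993482 TPM per mouse over the genes of the table. Mice were compared by Pearson correlation across genes, which are not independent replicates. It ranged from 0.983 to 0.984 for 3 pairs aged 8 dpp, from 0.975 to 0.983 for 10 pairs aged 10 dpp, and from 0.975 to 0.981 for 15 pairs that differed in age. The number of genes at 3 TPM or more was 15009, 14905 and 14956 in the mice of 8 dpp. It was 15026, 14872, 14825, 14901 and 14585 in those of 10 dpp. The means differed by -114.9 genes (10 minus 8 dpp), and a two-sided exact permutation test gave p = 0.25, where 3 against 5 mice can reach 0.0179. After median-of-ratios scaling the difference was -139.7 genes with an exact permutation p = 0.0357.

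Transcripts typical of somatic cells were abundant at both ages. The 20 Sertoli markers together reached between 13137 and 14509 TPM at 8 dpp and between 13459 and 14254 TPM at 10 dpp. Clusterin (Clu), a secreted chaperone abundant in Sertoli cells, alone stood at 5377 ± 345 TPM (SD, n = 3) at 8 dpp, and its log2 difference to 10 dpp was -0.02 (adjusted p = 0.999, limma). The 18 measured genes of undifferentiated spermatogonia summed to between 256 and 328 TPM over the 8 mice, and the 12 of differentiating spermatogonia to between 658 and 791 TPM. The samples thus held markers of germ cells and, at far higher summed levels, of Sertoli cells. The lists hold different genes, some of them very abundant such as Clu, so their sums do not measure shares of cells. By the authors' counts of stained nuclei, germ cells made up the great majority of every sample. In bulk samples such as these, fewer cells of a type and less RNA per cell cannot be told apart.

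Between 8 and 10 dpp, 199 genes rose and 46 fell. Among the named genes the largest rises were those of Osr1, a zinc-finger transcription factor of developing mesoderm, and Rem1, a small GTPase of the RGK family. Among the largest falls with RNA at both ages were those of Adamts4, a secreted protease of the extracellular matrix, Icam1, an adhesion molecule, Arl4c, a small GTPase, and H1f0, the linker histone typical of slowly dividing and differentiated cells. The changes were small, with a median log2 difference of 0.53 among the rises and -0.59 among the falls, against a median absolute difference of 0.12 over all genes tested. A log2 difference of 1 or more was reached by 7 of the rises and 10 of the falls, and 89 rises and 20 falls were smaller than 0.5.

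These calls came from limma, fitted to log2(TPM + 1) of all 28 mice with a Benjamini-Hochberg adjusted p under 0.05. They made up 1.20% of the genes tested, 0.977% for the rises and 0.226% for the falls. The lean to rises was weaker below this threshold, with 1312 genes higher and 1025 lower at an unadjusted p under 0.05 (limma). The values of the mice did not overlap between the ages in 239 of the 245 genes, where 11.0% of all genes did not overlap. The 245 were called from the same values, so this is no separate support for the calls. The number of calls rested on each of the 3 mice of 8 dpp: 106 genes were called without mouse 1, 140 without mouse 2 and 121 without mouse 3, and of these 99, 126 and 113 were among the 245. When only the 8 mice were fitted, 129 genes passed, of which 80 were among the 245.

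**Figure D1:**
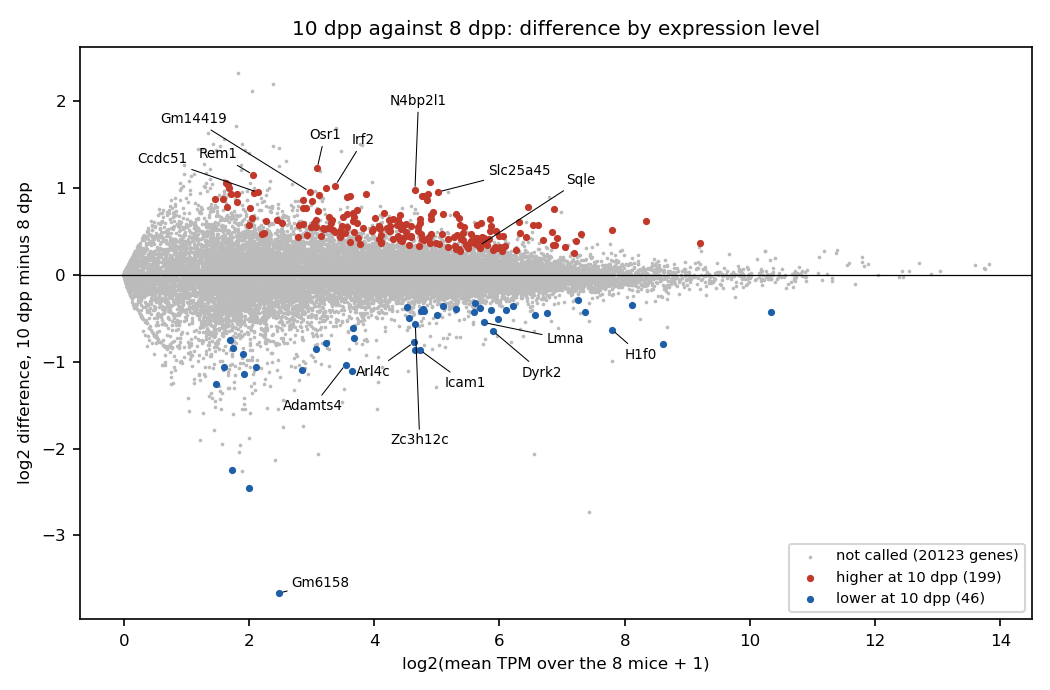
Each point is a gene, with log2 of its mean TPM over the 8 mice plus 1 on the horizontal axis and its log2 difference (10 minus 8 dpp) on the vertical axis. Red points mark the 199 genes that rose and blue points the 46 that fell, and the labelled genes are 7 of the 8 largest rises, the 8 largest falls and Sqle.

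Promoter windows are shown for the leading rises and falls whose call remained under every alternative setting and that have a window, so that the sequence in front of the genes can be read beside their values. The windows are from RefSeq on GRCm38.p6 and run from 250 bases before to 50 bases after the annotated start, written 5′ to 3′ on the strand of the gene. Irf2 rose (chr8:46739495-46739794, plus strand), as did Slc25a45 (chr19:5877572-5877871, plus strand) and Ccdc51 (chr9:109082246-109082545, plus strand). Arl4c fell (chr1:88702142-88702441, minus strand), as did H1f0 (chr15:79027962-79028261, plus strand). The RefSeq start of H1f0 used here, 79028212, lies before the GENCODE gene start given below, 79028450, and the window ends before the latter. Capitals mark every match, on either strand, to the motifs searched. These were the CCAAT box, the GC box written GGGCGG, the TATA box written TATAAA, the E-box written CACGTG, the letters GCGGGAA of the E2F site, CCGGAAG of the ETS site, GCATGCG of the NRF1 site and TGACGTC of the cyclic AMP response element.

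Irf2: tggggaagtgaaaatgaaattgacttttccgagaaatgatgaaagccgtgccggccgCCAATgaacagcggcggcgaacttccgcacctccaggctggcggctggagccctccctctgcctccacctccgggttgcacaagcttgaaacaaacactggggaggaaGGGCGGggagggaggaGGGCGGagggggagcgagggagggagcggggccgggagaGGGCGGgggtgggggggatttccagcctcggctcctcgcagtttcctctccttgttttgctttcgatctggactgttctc
Slc25a45: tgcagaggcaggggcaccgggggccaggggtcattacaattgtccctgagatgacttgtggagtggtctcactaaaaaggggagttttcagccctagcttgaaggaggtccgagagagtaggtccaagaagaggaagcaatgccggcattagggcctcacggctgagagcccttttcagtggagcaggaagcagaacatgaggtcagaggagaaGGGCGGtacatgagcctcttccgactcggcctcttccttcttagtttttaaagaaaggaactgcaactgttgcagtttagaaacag
Ccdc51: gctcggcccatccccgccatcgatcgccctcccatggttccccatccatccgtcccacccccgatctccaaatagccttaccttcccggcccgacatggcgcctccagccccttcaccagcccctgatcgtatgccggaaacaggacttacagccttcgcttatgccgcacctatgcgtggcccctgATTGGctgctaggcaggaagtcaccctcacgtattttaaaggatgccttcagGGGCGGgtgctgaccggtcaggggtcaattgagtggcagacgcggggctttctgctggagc
Arl4c: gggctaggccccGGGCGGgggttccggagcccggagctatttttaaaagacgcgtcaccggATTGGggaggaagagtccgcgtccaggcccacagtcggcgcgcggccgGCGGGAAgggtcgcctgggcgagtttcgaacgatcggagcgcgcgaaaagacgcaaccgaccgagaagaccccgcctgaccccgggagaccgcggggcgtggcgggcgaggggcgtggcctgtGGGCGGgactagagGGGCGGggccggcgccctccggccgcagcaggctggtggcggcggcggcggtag
H1f0: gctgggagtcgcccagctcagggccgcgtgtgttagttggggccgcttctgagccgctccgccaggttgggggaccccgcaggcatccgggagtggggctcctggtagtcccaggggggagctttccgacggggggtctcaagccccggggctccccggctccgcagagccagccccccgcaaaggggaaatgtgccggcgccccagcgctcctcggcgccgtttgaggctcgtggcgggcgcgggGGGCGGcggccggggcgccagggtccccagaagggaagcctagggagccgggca

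The GC box letters GGGCGG occurred 3 times in the Irf2 window and 3 times in that of Arl4c, and once in each of the other 3 windows shown. The CCAAT letters occurred once in the windows of Irf2, Ccdc51 and Arl4c. Over all called genes with a window (140 of the 177 Ensembl genes that rose and 23 of the 29 that fell), GGGCGG was in 63.7% of 179 windows of rises and in 70.4% of 27 windows of falls, beside 60.8% of 14179 windows of all genes tested and 35.7% of all 32851 windows. For CCAAT the shares were 37.4% of rises, 33.3% of falls, 37.9% of genes tested and 37.4% of all windows. TATAAA was in 8.38%, 11.1%, 7.32% and 13.6%, in the same order, and CACGTG in 11.2%, 3.7%, 9.78% and 7.15%. GCGGGAA was in 8.38%, 14.8%, 8.03% and 4.6%, and CCGGAAG in 14%, 18.5%, 16.5% and 8.86%. GCATGCG was in 3.35%, 0%, 6.12% and 3.58%, and TGACGTC in 5.03%, 3.7%, 5.01% and 3.21%. Both strands were searched and overlaps between motifs were allowed, and a match is a description of letters only.

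Osr1 (ENSMUSG00000048387, GRCm38 chromosome 12 from 9570116 to 9581500, overlapping 1700022H16Rik) stood at 3.13, 3.38 and 4.06 TPM in the mice of 8 dpp and at 5.80, 8.53, 10.0, 10.5 and 14.6 TPM in those of 10 dpp. The rule that named the leading rises and falls required ages that do not overlap, so their separation is no finding. For Osr1 the older group spread widely. The log2 difference was 1.22 (SE 0.267, adjusted p = 0.0163, limma). The summed TPM of the 10 stromal markers was 1080, 1317, 1483, 1702 and 2014 in the same 5 mice, in the same order as Osr1, and between 1237 and 1362 TPM at 8 dpp, and its part in the result was not tested.

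Rem1 (ENSMUSG00000000359, chromosome 2 from 152626951 to 152635198) was low at 8 dpp, with 1.23, 1.58 and 1.23 TPM. At 10 dpp it had 2.66, 4.31, 3.67, 5.51 and 5.36 TPM. Its log2 difference of 1.15 (SE 0.276, adjusted p = 0.0316, limma) lost its call in 10 of the 21 alternative settings, with adjusted p between 0.0147 and 0.151. Rem1 and Osr1 were the rises of largest log2 difference and, with Gm14419, the least firm of the leading rises described here.

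Irf2 (ENSMUSG00000031627, chromosome 8 from 46739732 to 46847458, overlapping Gm31172, Gm45479 and Gm45481) encodes an interferon regulatory factor that acts mostly as a repressor. It stood at 5.22, 6.59 and 4.26 TPM at 8 dpp and at 10.3, 12.4, 13.1, 11.2 and 12.0 TPM at 10 dpp. The rise was even across the 5 mice, and the log2 difference of 1.02 (SE 0.129, adjusted p = 0.000115, limma) passed under every alternative. Mavs, an adaptor of antiviral RNA sensing, rose from 17.6 TPM to 34.4 TPM on average, and Oasl2, an interferon-induced gene, from 14.2 to 23.2 TPM. Mavs and Oasl2 were named after their values were seen.

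Slc25a45 (ENSMUSG00000024818, chromosome 19 from 5877808 to 5885878) belongs to the mitochondrial carrier family. Its values of 16.8, 22.8 and 18.8 TPM at 8 dpp and 38.0, 36.3, 34.2, 37.6 and 46.3 TPM at 10 dpp gave a log2 difference of 0.95 (SE 0.132, adjusted p = 0.000176, limma). Ccdc51 (ENSMUSG00000025645, chromosome 9 from 109082493 to 109092489, overlapping Tma7) encodes a subunit of a potassium channel of mitochondria. It was at 1.74, 1.95 and 1.69 TPM at 8 dpp and at 4.71, 4.82, 4.08, 3.42 and 5.01 TPM at 10 dpp. Both genes were named by the rule that required ages without overlap.

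N4bp2l1 (ENSMUSG00000041132, chromosome 5 from 150571644 to 150597188, overlapping Gm43598) went from 13.7, 18.8 and 12.0 TPM to 27.9, 25.1, 27.6, 34.0 and 33.8 TPM, with a log2 difference of 0.97 (SE 0.129, adjusted p = 0.000144, limma). Gm14419 (ENSMUSG00000078875, chromosome 2 from 177000956 to 177012787), a predicted protein-coding gene, went from 2.85, 5.83 and 3.39 TPM to 7.74, 7.00, 11.1, 8.50 and 8.36 TPM. The gap between its highest mouse of 8 dpp and its lowest of 10 dpp was small, and it lost its call in 12 of 21 alternatives.

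**Figure D2:**
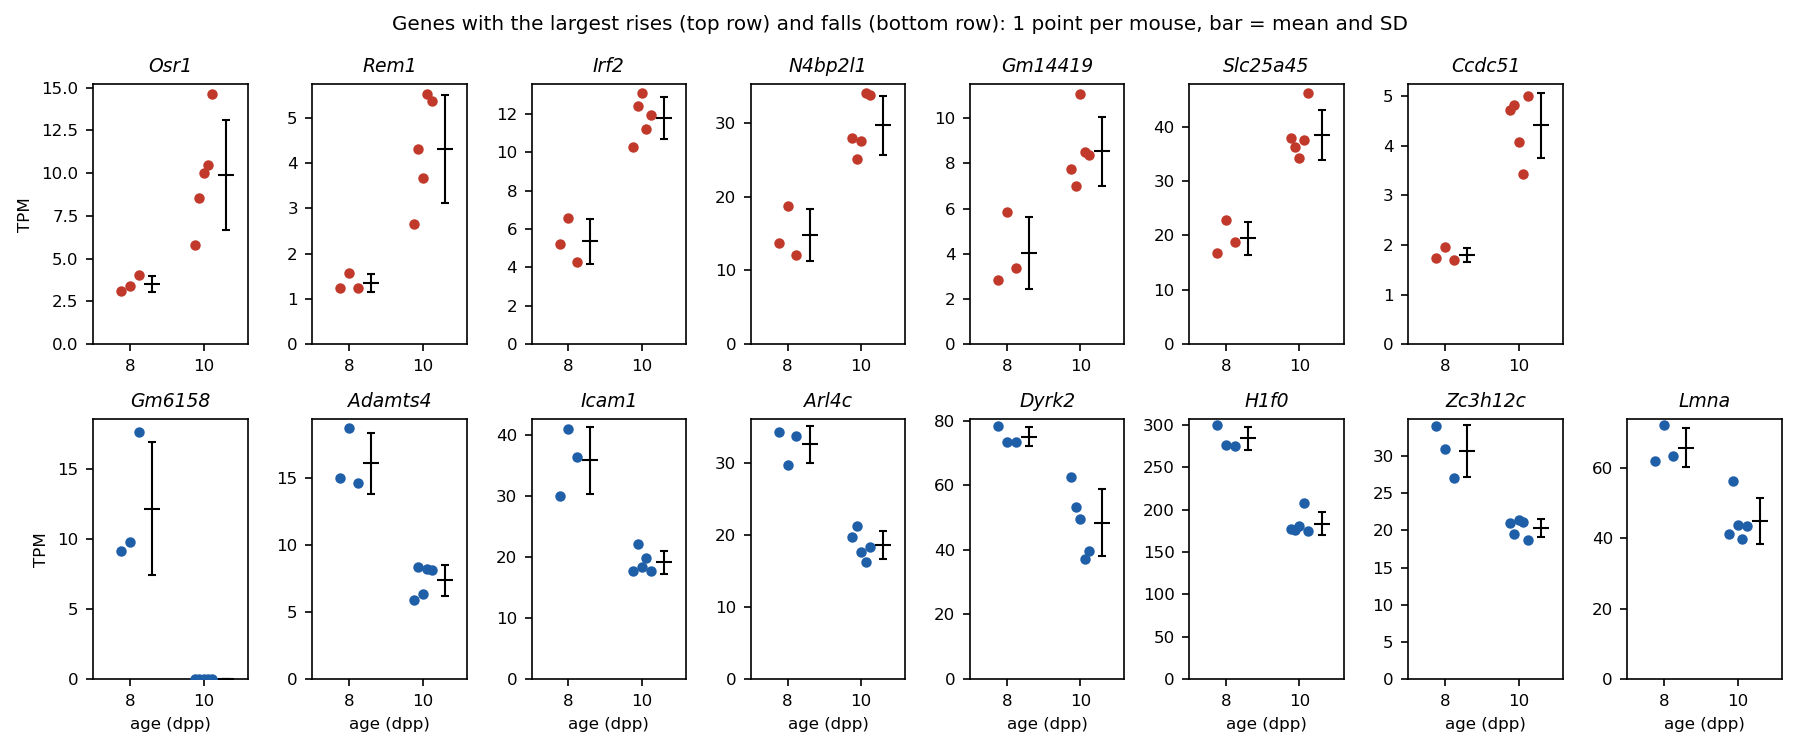
TPM of 7 of the 8 largest rises (top row, red) and the 8 largest falls (bottom row, blue) at 8 dpp (3 mice) and 10 dpp (5 mice), 1 point per mouse, with mean and SD in black and each axis from 0. The rule that chose these 15 genes required ages that do not overlap, so their separation is no finding, and Gm6158 was listed at 0 in all 5 mice of 10 dpp.

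Other genes rose as well. The genes and gene families of this paragraph and the next were chosen after their values were seen, so the range of their functions is no finding. Mat2a, the enzyme that makes the methyl donor S-adenosylmethionine, was at 241, 244 and 237 TPM at 8 dpp and at 419, 365, 420, 319 and 332 TPM at 10 dpp, with a log2 difference of 0.61 (SE 0.0853, adjusted p = 0.000176, limma). Ezh2, the methyltransferase of Polycomb repressive complex 2, rose from 30.9 ± 0.779 TPM (SD, n = 3) to 42.1 ± 2.22 TPM (SD, n = 5). Trp53, the tumour suppressor p53, rose from 46.2 ± 2.58 to 61.8 ± 1.64 TPM, and Nfe2l2, the transcription factor NRF2 of the oxidative stress response, from 74.0 ± 6.68 to 111 ± 12.7 TPM. Sox8, a relative of Sox9 that is expressed in Sertoli cells, went from 33.3, 39.3 and 39.1 TPM to 58.3, 54.6, 53.7, 58.1 and 54.1 TPM. Tsc22d1, among the most abundant risers, went from 498 ± 16.0 to 641 ± 35.7 TPM.

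Membrane transporters were among the rises. Of 243 solute carrier genes measured, 8 rose and 0 fell, a share to be read beside the 0.977% of all genes that rose, and the family's median log2 difference was 0.06. They were Slc7a1 and Slc7a2, carriers of cationic amino acids, Slc30a1 and Slc30a5, carriers of zinc, Slc16a3, Slc25a45, Slc35c1 and Slc41a2. Slc16a3, which exports lactate and is also known as MCT4, went from 70.1, 99.2 and 74.3 TPM to 141, 140, 149, 123 and 128 TPM. Its log2 difference was 0.75 (SE 0.131, adjusted p = 0.00219, limma). Among 331 Zfp zinc-finger genes 4 rose and 0 fell, and among 77 genes of mitochondrial ribosomal proteins 3 rose (Mrps6, Mrpl36 and Mrpl49) and 0 fell. Mrps6 went from 59.5 ± 5.41 to 103 ± 7.13 TPM. Of 56 genes whose symbols begin with Rab and a digit 3 rose (Rab5b, Rab7b and Rab11fip3, the last not a Rab GTPase) and 1 fell. Among 110 Rnf and Trim genes 2 rose and 1 fell, and among 14 Klf genes 1 rose and 1 fell. Of 20 Hnrn genes, whose products bind nuclear RNA, 0 were called by limma, and in 7 every mouse of 10 dpp was below every mouse of 8 dpp, where 4.78% of all genes were so, with a family median of -0.11.

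Among the falls, H1f0 (ENSMUSG00000096210, chromosome 15 from 79028450 to 79030504, overlapping Gm49544) was the most abundant of the leading 8. It stood at 300, 277 and 275 TPM at 8 dpp and at 177, 176, 180, 207 and 175 TPM at 10 dpp. The gap between the ages was several times the spread within them, with a log2 difference of -0.63 (SE 0.103, adjusted p = 0.00107, limma). H3f3b, which encodes the replacement histone H3.3 and was named after its values were seen, went from 1613, 1520 and 1504 TPM to 1158, 1093, 1102, 1218 and 1177 TPM. Its log2 difference was -0.43 (SE 0.0651, adjusted p = 0.000543, limma).

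Adamts4 (ENSMUSG00000006403, chromosome 1 from 171250421 to 171260637, overlapping another gene) was at 15.0, 18.7 and 14.6 TPM at 8 dpp and at 5.90, 8.36, 6.34, 8.19 and 8.12 TPM at 10 dpp, with a log2 difference of -1.03 (SE 0.234, adjusted p = 0.0205, limma). Icam1 (ENSMUSG00000037405, chromosome 9 from 21015985 to 21028817, overlapping Gm47079) went from 30.1, 41.1 and 36.4 TPM to 17.8, 22.2, 18.4, 19.8 and 17.8 TPM. Icam1 lost its call in 8 of 21 alternatives and Adamts4 in 6.

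Arl4c (ENSMUSG00000049866, chromosome 1 from 88673125 to 88702221) went from 34.3, 29.6 and 33.7 TPM to 19.7, 21.2, 17.6, 16.2 and 18.3 TPM, with a log2 difference of -0.78 (SE 0.147, adjusted p = 0.00446, limma), and passed under every alternative. Dyrk2 (ENSMUSG00000028630, chromosome 10 from 118855603 to 118870209, overlapping 4932442E05Rik), a protein kinase, went from 78.3, 73.3 and 73.2 TPM to 62.4, 53.2, 49.5, 37.1 and 39.7 TPM. Mice 4 and 5 were the lowest of the older group, and Dyrk2 lost its call in 8 of 21 alternatives, among them the omission of any 1 mouse of 8 dpp or of mouse 4 or 5 of 10 dpp.

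Zc3h12c (ENSMUSG00000035164, chromosome 9 from 52111344 to 52168572, overlapping Mir6244), of the regnase family of RNA-binding proteins, went from 30.7 ± 3.51 TPM (SD, n = 3) to 20.4 ± 1.19 TPM (SD, n = 5). Lmna (ENSMUSG00000028063, chromosome 3 from 88480147 to 88509956), which encodes lamins A and C of the nuclear envelope, went from 61.9, 72.2 and 63.5 TPM to 41.4, 56.3, 43.7, 39.8 and 43.4 TPM. Mouse 2 of 10 dpp was the highest of its age in Lmna. Cdkn1b, the cell cycle inhibitor p27, was named after its values were seen and went from 38.7 ± 4.11 to 29.8 ± 1.05 TPM (log2 difference -0.36, SE 0.0757, adjusted p = 0.0114, limma).

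Gm6158 (ENSMUSG00000090381, chromosome 14 from 24069734 to 24070637, overlapping Gm31392) gave the largest fitted fall. It is a processed pseudogene, whose reads can be shared with near-identical copies. It was at 9.11, 9.76 and 17.7 TPM at 8 dpp and listed at 0 in all 5 mice of 10 dpp, so no fold is given. It was the 1 gene of the table under 1 TPM in every mouse of one age and at 3 TPM or more in every mouse of the other, and 0 genes made such a change upward.

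None of the measured genes in the germ cell lists used here reached the limma threshold in either direction. The called genes were not compared with the authors' own substage lists. Of 18 measured genes of undifferentiated spermatogonia 0 were called, 16 had a negative and 2 a positive log2 difference, and the median was -0.16, beside a median of -0.00062 over all genes tested. In 2 of the 18 every mouse of 10 dpp was below every mouse of 8 dpp, where 4.78% of all genes were so. Their summed level was 328, 291 and 309 TPM at 8 dpp and 290.5, 286, 266, 277 and 256 TPM at 10 dpp. The sums of the ages did not overlap, by a small margin. Of the 27 lists, those of heat shock and endothelial genes also had sums without overlap, and the others overlapped. Among single genes 11.0% did not overlap. Nanos2, Lhx1, Eomes and Pax7 were not among the genes of the table. Id4, a marker of the stem cell pool that was named after its values were seen, had 11.6 TPM at 8 dpp and 8.86 TPM at 10 dpp on average, and its mice did not overlap, but its adjusted p was 0.197 (limma). Lin28a, an RNA-binding protein of early spermatogonia, was at 49.8 ± 4.68 TPM (SD, n = 3) and 42.4 ± 2.78 TPM (SD, n = 5), with a log2 difference of -0.23 (SE 0.101, adjusted p = 0.372). In limma 3 of the 18 had an unadjusted p under 0.05, as did 2337 genes or 11.5% of all genes tested, the share to set beside each such count of the other lists. Foxo1 was at 36.0 ± 1.51 and 35.9 ± 2.11 TPM.

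Of 12 genes of differentiating spermatogonia and of 27 genes of retinoic acid signalling and meiotic entry, 0 were called, with medians of -0.10 and -0.04. Stra8, the retinoic acid target needed for meiotic entry, was at 235, 164 and 227 TPM at 8 dpp and at 151, 190, 176, 174 and 177 TPM at 10 dpp. Mouse 2 of 8 dpp lay within the range of the older mice, and the log2 difference was -0.25 (SE 0.117, adjusted p = 0.404, limma). At an unadjusted p under 0.05 there were 1 of the 12 and 2 of the 27 genes, beside 11.5% of all genes. Ccnd2, a cyclin of dividing spermatogonia, was at 86.8 ± 3.36 TPM and 95.8 ± 11.3 TPM (adjusted p = 0.757, limma). Aldh1a1, which makes retinoic acid, was at 921 ± 47.4 and 914 ± 40.5 TPM, and Dazl, a germ cell RNA-binding protein, at 319 ± 47.0 and 278 ± 5.06 TPM.

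All 14 measured genes of the synaptonemal complex and chromosome axis had a negative log2 difference, between -0.36 and -0.02 with a median of -0.20, and 0 passed the test, with 2 of the 14 at an unadjusted p under 0.05, beside 11.5% of all genes. Their summed level was 985, 734 and 986 TPM at 8 dpp and 726, 845, 838, 790 and 810 TPM at 10 dpp. Mouse 2 of 8 dpp was thus near the lowest of the older mice, and the ages overlapped. Sycp3, a protein of the axis, was at 154, 103 and 150 TPM against 119, 134, 136, 128 and 136 TPM (log2 difference -0.03, SE 0.128, adjusted p = 0.996, limma). Stag3, a meiotic cohesin subunit, was at 124 ± 11.9 and 114 ± 6.11 TPM.

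The list of meiotic recombination showed the same lack of calls, with 0 of 27 genes and a median of -0.11. Its sum was 683, 525 and 661 TPM at 8 dpp and between 544 and 587 TPM at 10 dpp. Mice 1 and 3 of 8 dpp thus lay above every older mouse, and mouse 2 of 8 dpp below every one. Mice 1 and 3, but not 2, also lay above every older mouse in the sums of the synaptonemal complex, piRNA pathway and differentiating spermatogonia. Mouse 2 had the highest Sertoli sum of the 8 mice, 14509 TPM, and its part in these medians was not tested. Tex15 was at 105 ± 16.2 and 92.5 ± 11.4 TPM, and Sun1, which tethers telomeres to the nuclear envelope, at 83.8 ± 9.28 and 80.5 ± 5.71 TPM. H2afx, the histone that is phosphorylated at DNA breaks, was at 58.1 ± 2.12 and 60.7 ± 6.30 TPM (adjusted p = 0.951, limma). Of 19 genes of the piRNA pathway 0 were called, with a median of -0.13, and Fkbp6 was at 243 ± 18.1 and 222 ± 9.65 TPM and Mael at 161 ± 15.3 and 146 ± 8.23 TPM. Among 21 late pachytene genes 0 were called and 8 stayed under 1 TPM in every mouse. Tbpl1 was at 40.7 ± 3.36 and 39.1 ± 2.88 TPM and Hspa2 at 35.0 ± 3.35 and 37.6 ± 3.70 TPM. At an unadjusted p under 0.05 there were 3 of the 27 recombination, 6 of the 19 piRNA pathway and 0 of the 21 late pachytene genes, beside 11.5% of all genes. Hist1h1t, the testis linker histone of pachytene cells, was not in the gene table. In the transcript table it was listed at 0 in 7 of the 8 mice and at 0.26 TPM in mouse 3 of 8 dpp. Its highest value over all 28 juvenile mice was 1.24 TPM, and its mean in the adult pachytene and diplotene samples was 3.4 TPM. Its RNA was thus low at every age, and its values here do not show whether pachytene cells were present.

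The lists of cell division also gave 0 calls. DNA replication (40 genes) had a median of -0.08, and mitotic division (30 genes) a median of -0.09. Their sums at 8 dpp were 2463, 2264.5 and 2555 TPM for replication and 1545, 1335 and 1549 TPM for mitotic division. Sums at 10 dpp lay between 2217 and 2365 TPM and between 1313 and 1412 TPM, so only mouse 2 of 8 dpp was within the older range. Pcna, the replication clamp, was at 172 ± 14.4 and 162 ± 5.55 TPM, Rpa2 at 120 ± 8.44 and 112 ± 6.44 TPM, Top2a at 154 ± 20.6 and 138 ± 4.81 TPM, and Ccnb1 at 97.8 ± 8.06 and 91.6 ± 5.65 TPM. Replication-dependent histones (28 genes) had a median of 0.03, with Hist2h2aa2 at 65.2 ± 5.23 and 58.2 ± 8.03 TPM and Hist1h2bc at 21.8 ± 4.21 and 22.0 ± 4.54 TPM. An unadjusted p under 0.05 was found for 3 of the 40 replication, 1 of the 30 mitotic and 4 of the 28 histone genes, where 11.5% of all genes had one. Poly-A libraries hold little RNA of such histones, which lack a poly-A tail, and near-identical copies share reads.

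Cholesterol synthesis was the 1 list of 27 with a called member. Sqle (ENSMUSG00000022351, chromosome 15 from 59315077 to 59331192), squalene epoxidase, was at 40.0, 40.0 and 48.5 TPM at 8 dpp and at 52.6, 60.5, 52.5, 49.9 and 54.1 TPM at 10 dpp. The ages were separated by little, the log2 difference was 0.33 (SE 0.0819, adjusted p = 0.0404, limma), and the call was lost in 11 of 21 alternatives. Of the 22 measured genes of this list 1 rose and 0 fell, 16 had a positive log2 difference, and the median was 0.10. In 5 of them every mouse of 10 dpp was above every mouse of 8 dpp, where 6.20% of all genes were so. Over all 27 lists, 1 of 577 genes was called, or 0.173%, beside the 1.20% of all genes.

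**Figure D3:**
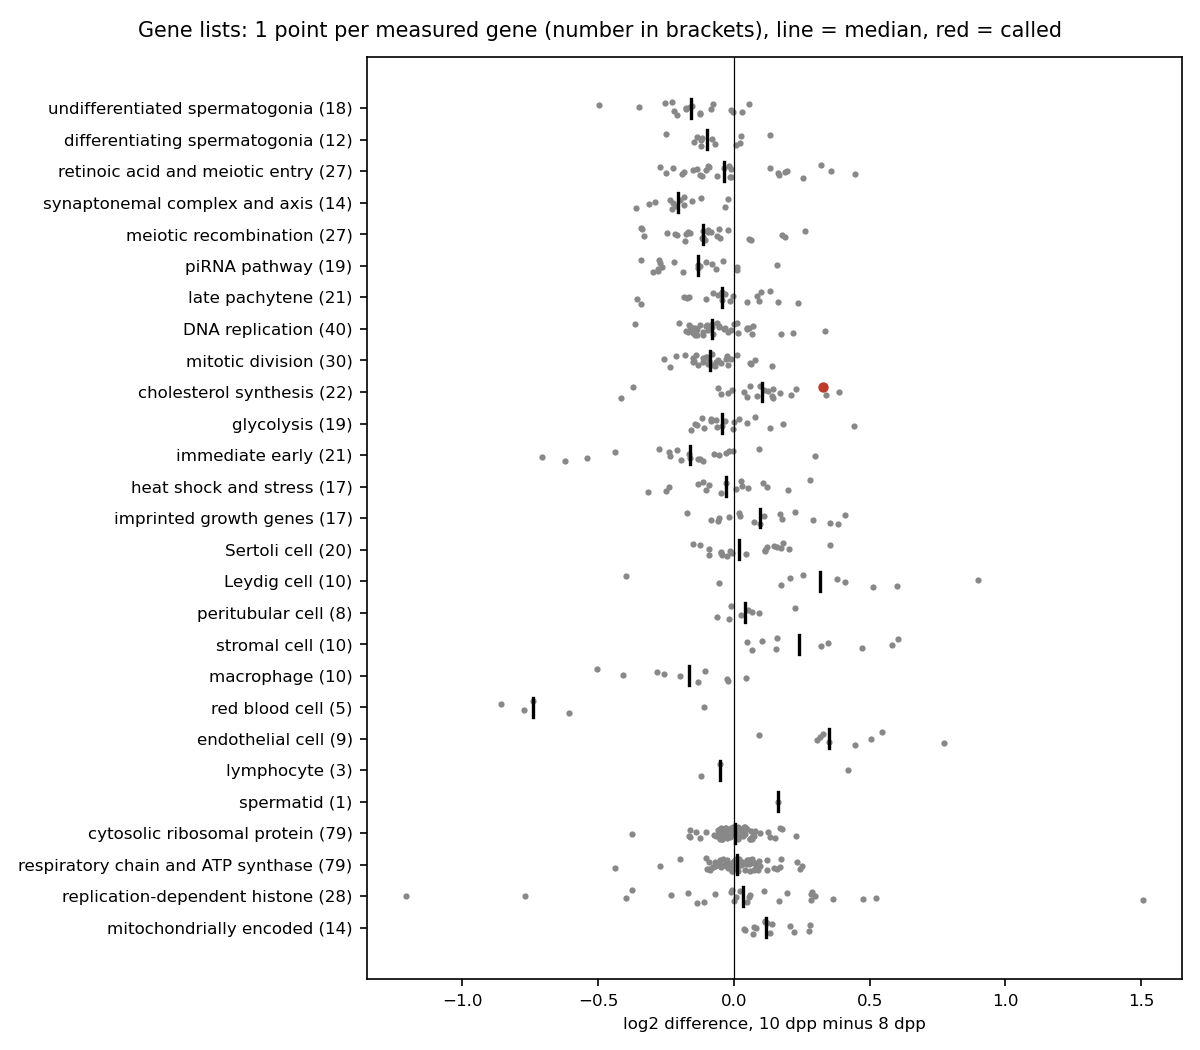
Log2 differences (10 minus 8 dpp) of the measured genes of 27 lists, 1 grey point per gene, with the number of genes in brackets, the median as a black line and the called gene in red. Sqle, in cholesterol synthesis, is the only called gene, and the medians run from -0.74 in red blood cell genes to 0.35 in endothelial genes.

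The lists of metabolism and protein synthesis stayed near 0. The 79 genes of cytosolic ribosomal proteins had a median log2 difference of 0.0025, the 79 nuclear genes of the respiratory chain and ATP synthase one of 0.01 and the 19 of glycolysis one of -0.04, all with 0 calls. Rplp1 was at 2392 ± 34.1 and 2402 ± 123 TPM, Rps24 at 1786 ± 58.4 and 1837 ± 100.2 TPM, Atp5b at 908 ± 12.0 and 903 ± 18.7 TPM, Cox4i1 at 667 ± 8.95 and 663 ± 40.0 TPM, Gapdh at 1322 ± 67.8 and 1320 ± 55.4 TPM and Ldhb at 1230 ± 73.3 and 1173 ± 37.0 TPM. All 14 mitochondrially encoded genes had a positive log2 difference, with a median of 0.12 and 0 calls. Their sum was 84100, 82675 and 79431 TPM at 8 dpp and 90307, 79810, 89404, 90935 and 91894 TPM at 10 dpp, where mouse 2 lay within the younger group. Below an unadjusted p of 0.05 were 4 of the 79 ribosomal, 5 of the 79 respiratory, 1 of the 19 glycolytic and 0 of the 14 mitochondrially encoded genes, where 11.5% of all genes were. mt-Co3 was at 13628 ± 546 and 14861 ± 939 TPM and mt-Co2 at 13394 ± 288 and 14077 ± 732 TPM.

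Immediate early genes, which cells switch on quickly after a stimulus, were high at both ages. Fos was at 952 ± 116 TPM (SD, n = 3) and 1015 ± 122 TPM (SD, n = 5), and Egr1 at 961 ± 72.2 and 950 ± 64.4 TPM. Of 21 immediate early genes 0 were called and 19 had a negative log2 difference, with a median of -0.16. Myc, named after its values were seen, was at 32.6, 40.2 and 40.8 TPM against 23.8, 26.0, 22.6, 17.2 and 25.1 TPM without overlap, and had an adjusted p = 0.0965 (limma). The 17 genes of heat shock and stress gave 0 calls and a median of -0.03, with Hspa8 at 1625 ± 79.1 and 1513 ± 25.1 TPM and Hspa5 at 676 ± 51.4 and 633 ± 20.9 TPM. Their summed level was between 4355 and 4680 TPM at 8 dpp and between 4160 and 4301 TPM at 10 dpp, without overlap. Sums of most lists overlapped, and 11.0% of single genes did not overlap. The unadjusted p was under 0.05 for 4 of the 21 immediate early, 3 of the 17 heat shock and 1 of the 17 imprinted genes, beside 11.5% of all genes. Imprinted growth genes (17 genes, 0 calls) had a median of 0.10, with Dlk1 at 183 ± 17.0 and 237 ± 47.6 TPM and H19 at 139 ± 6.32 and 131 ± 14.6 TPM.

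Markers of the other cell types gave 0 calls in either direction, but their sums differed in how they lay. The 20 Sertoli markers had a median log2 difference of 0.02, and Aard was at 2587 ± 113 and 2509 ± 62.9 TPM. The 8 peritubular markers had a median of 0.04, with sums between 1546 and 1707 TPM at 8 dpp and between 1265 and 1956 TPM at 10 dpp, and Acta2, smooth muscle actin, was at 852 ± 40.7 and 852 ± 142 TPM and Myl9 at 481 ± 29.2 and 508 ± 76.5 TPM. The 10 stromal markers all had a positive log2 difference, with a median of 0.24, and Col1a2 was at 339 ± 16.0 and 386 ± 85.2 TPM and Col3a1 at 270 ± 11.9 and 309 ± 82.4 TPM. The 10 Leydig markers had a median of 0.32 and sums between 294 and 316 TPM at 8 dpp and between 297 and 446 TPM at 10 dpp, with Insl3 at 58.3 ± 11.0 and 68.1 ± 22.5 TPM and Hsd17b3 at 61.2 ± 2.00 and 59.2 ± 7.43 TPM.

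All 9 endothelial markers had a positive log2 difference, with a median of 0.35. Their sum was 91.2, 88.5 and 76.2 TPM at 8 dpp and 101, 94.6, 108, 119 and 154 TPM at 10 dpp, so that the ages did not overlap. Such separation was found in 11.0% of single genes. Cdh5, a cadherin of endothelium, was at 28.6, 26.9 and 27.2 TPM against 25.9, 27.5, 33.9, 40.1 and 49.0 TPM, and Kdr, a receptor of vascular growth factor, at 12.8 ± 1.14 and 16.2 ± 1.53 TPM. All 5 measured red blood cell markers had a negative log2 difference, with a median of -0.74. Hbb-bs was at 74.5, 168 and 268 TPM against 62.4, 70.2, 94.7, 84.3 and 162 TPM, which overlapped, and Hba-a2 at 155 ± 62.1 and 102 ± 43.2 TPM. Macrophage markers (10 genes, median -0.17) summed to between 41.7 and 74.8 TPM over the 8 mice, with Lyz2 at 10.8 ± 2.15 and 10.3 ± 3.74 TPM and Csf1r at 10.1 ± 1.55 and 9.83 ± 1.01 TPM. The 3 measured lymphocyte markers, among them Lck at 2.74 ± 1.02 and 3.94 ± 0.957 TPM and Cd3e at 3.25 ± 0.281 and 2.98 ± 0.912 TPM, and the 1 measured spermatid marker, Spaca1 at 2.44 ± 0.302 and 2.97 ± 1.17 TPM, were low, and Prm1, Prm2, Tnp1 and Tnp2 were not in the table. Over all these marker lists the unadjusted p was under 0.05 for 4 of 9 endothelial, 2 of 10 stromal, 2 of 5 red blood cell, 1 of 20 Sertoli and 1 of 10 Leydig genes and for 0 of the other marker lists, beside 11.5% of all genes. The part of these cell types in the 245 calls was not tested.

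**Figure D4:**
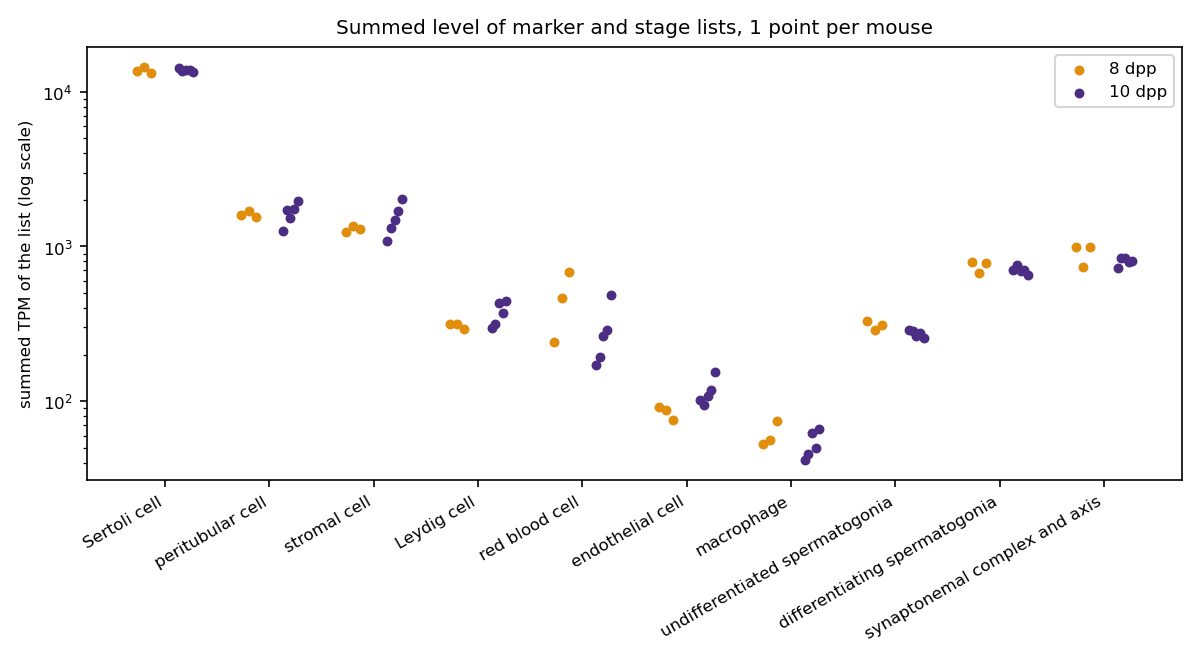
Summed TPM (log scale) of 7 somatic marker lists and 3 germ cell lists in each mouse, orange for 8 dpp and purple for 10 dpp, in order of mouse number within each age. Sertoli sums lie between 13137 and 14509 TPM in all 8 mice, and the endothelial sums are the only ones of the 7 somatic lists in which the ages do not overlap, as also in the list of undifferentiated spermatogonia.

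By kind of gene, 176 of 13660 protein-coding genes with a symbol rose and 27 fell, or 1.49% called. Of the genes of NONCODE, a catalogue of noncoding RNAs, 22 rose and 17 fell, or 0.74% of those tested, and their median log2 difference was -0.04. NONMMUG001576 was at 26.8, 30.5 and 30.1 TPM at 8 dpp and at 53.4, 45.1, 48.4, 39.9 and 45.2 TPM at 10 dpp, and NONMMUG034589 at 7.30 ± 0.0755 and 12.2 ± 1.24 TPM. NONMMUG032436 fell from 9.13, 9.46 and 10.5 TPM to 4.80, 4.94, 5.19, 3.49 and 2.24 TPM, and was at 0.838 TPM on average by 12 dpp. NONMMUG041196 fell from 4.26 ± 0.379 to 1.82 ± 0.510 TPM. Of 76 piRNA precursors, the long transcripts from which piRNAs are cut, 0 were called by limma, and in 2 of them every mouse of 10 dpp was below every mouse of 8 dpp, where 4.78% of all genes were so.

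On the X chromosome 9 of 652 genes rose and 0 fell, 1.38% called, with a median log2 difference of 0 over the chromosome. Prrg1 (ENSMUSG00000047996, from 78449613 to 78583896, overlapping Gm22843) was at 6.79, 8.20 and 5.96 TPM at 8 dpp and at 15.2, 10.9, 14.9, 14.2 and 14.2 TPM at 10 dpp, with a log2 difference of 0.90 (SE 0.124, adjusted p = 0.000176, limma). Mtmr1 (ENSMUSG00000015214, from 71364760 to 71419196), a phosphoinositide phosphatase, went from 19.3 ± 1.76 to 28.6 ± 1.58 TPM. The other 7 were Mum1l1, Zmat1, Usp27x, Tceal1, Smim10l2a, Mamld1 and the pseudogene Gm14452. Of 20 genes of the Y chromosome, Uty (ENSMUSG00000068457, from 1096861 to 1245759), a relative of a histone demethylase gene on the X, was the 1 called, at 10.4, 8.31 and 11.5 TPM against 18.3, 12.5, 16.3, 13.1 and 15.2 TPM. Its log2 difference was 0.54 (SE 0.120, adjusted p = 0.0191, limma), and the call was lost in 6 of 21 alternatives, with adjusted p between 0.0126 and 0.175. Autosomal shares of called genes ran from 0.891% on chromosome 7 to 2.21% on chromosome 1.

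The mice of 12 to 18 dpp, which took no part in the difference between 8 and 10 dpp other than through the shared estimate of spread, showed how the called genes went on. Of the 199 rises, 112 (56.3%) were lower at 18 than at 12 dpp and 33 (16.6%) were higher, where 39.1% of all genes were lower and 28.6% higher (limma, adjusted p under 0.05). Of the 46 falls, 26 (56.5%) were lower and 5 (10.9%) higher. The median of all genes moved by -0.148 between these later ages. With median-of-ratios scaling that median was 0.0159, and 83 rises (41.7%) and 22 falls (47.8%) were lower at 18 dpp, beside 28.4% of all genes. The contrast of 18 with 12 dpp was added after the data were seen, and no test of these shares was made.

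N4bp2l1 was at 51.6 TPM on average at 12 dpp and 36.2 TPM at 18 dpp, and Slc25a45 at 56.4 and 44.3 TPM. Irf2 was at 14.2 TPM at 12 dpp and at 9.04 TPM at 18 dpp, with a log2 difference of -0.61 between these ages (SE 0.112, adjusted p = 2.49e-05, limma). H1f0 was at 98.7 TPM at 12 dpp and 42.2 TPM at 18 dpp, and Arl4c at 12.8 and 4.89 TPM, so that both ended the series lower than at 10 dpp. Lmna stayed between 44.7 and 51.6 TPM from 12 to 18 dpp. Ezh2 rose on to 77.2 TPM at 18 dpp, where Trp53 was at 51.5 TPM. Gm6158 was at 0.520 TPM at 12 dpp and again at 8.75 TPM at 16 dpp.

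In the adult pachytene and diplotene samples, whose values were normalized in another table so that levels are set side by side without a test, several of the leading rises were close to 0. Osr1 was at 0.125 TPM, Ccdc51 at 0.263 TPM and Irf2 at 1.12 TPM on average, and Rem1 was listed at 0 in each sample. H1f0 was at 4.07 ± 0.938 TPM (SD, n = 4) and Adamts4 at 0.145 TPM. Over all called genes, 29 of the 199 rises (14.6%) and 16 of the 46 falls (34.8%) were under 1 TPM in adult cells, where 26.0% of all 20366 genes with an adult value were. Ezh2, at 80.1 ± 3.11 TPM, was among the rises that were high in adult cells.

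**Figure D5:**
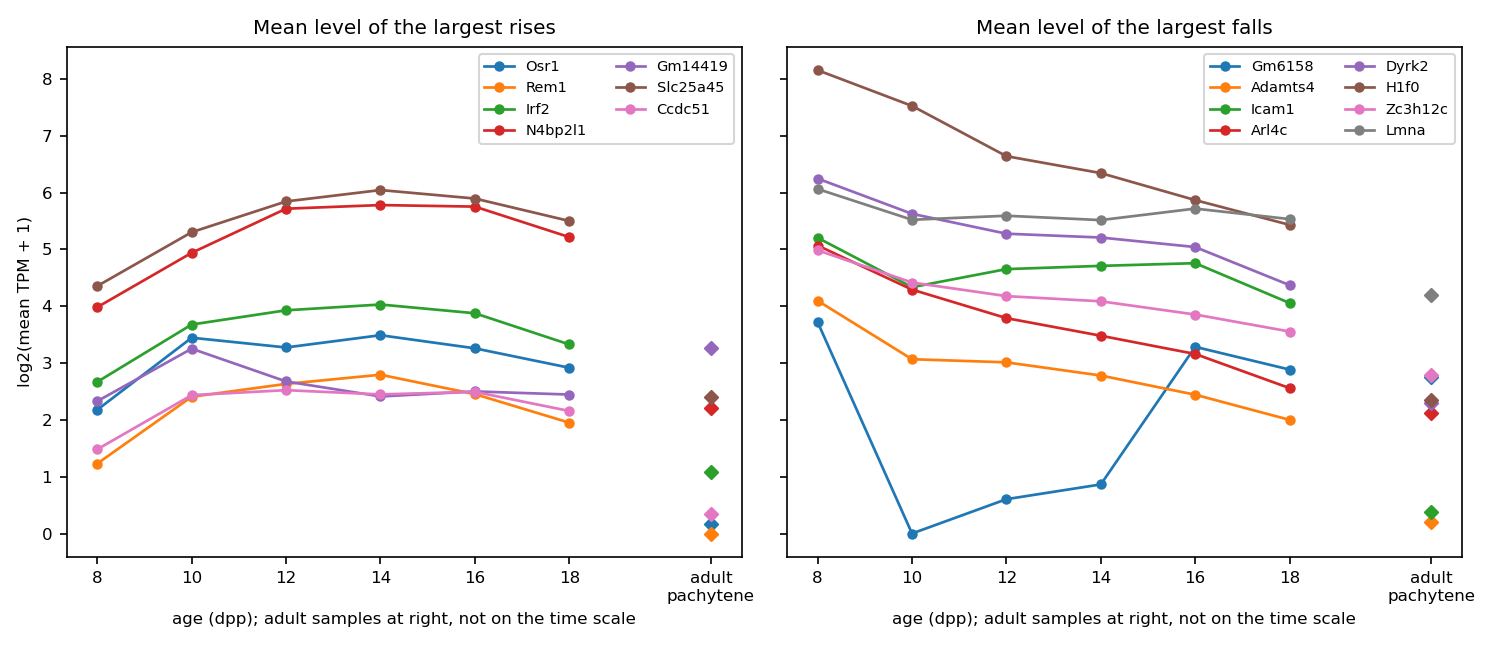
Mean level, as log2(mean TPM + 1), of 7 of the 8 largest rises (left) and the 8 largest falls (right) at 6 ages from 8 to 18 dpp and, as diamonds, in the adult samples, which were normalized separately. N4bp2l1 reaches 51.6 TPM at 12 dpp, and H1f0 falls at each later age to 42.2 TPM at 18 dpp.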

How the data were processed

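Poly-A RNA of germ cells was sequenced by the authors, who aligned paired reads to mouse transcripts of Ensembl, NONCODE and piRNA precursors (mm10) with Bowtie 1.0.0 and estimated TPM with RSEM 1.2.8. Whether libraries kept strand is not given in the sources used here, so overlapping genes may share reads. The transcript table and the adult table held TPM as deposited. The juvenile gene table held, as deposited, scores equal to exp(log2(TPM + 1)) - 1, which were converted back, and 20288 of 20368 genes were then within 0.2 TPM of their summed transcripts. Its column of substage names, the authors' own gene lists, was not used. Symbols and coordinates came from GENCODE M21 (GRCm38), which matched 14896 of 15025 Ensembl genes.

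limma 3.58.1 (R 4.3.3) was fitted to log2(TPM + 1) of 28 mice with the ages as groups, a variance prior following expression, and Benjamini-Hochberg adjusted p under 0.05. Fold changes on this scale understate low genes. The study's methods state no test between ages. Exact permutation tests used scipy 1.17.1. Named genes were the 8 largest rises and 8 largest falls among called genes with a symbol, at least 3 TPM on average at either age and mice that do not overlap, up to 4 called members (or the 2 most abundant genes) of each list, the 4 genes of stained proteins, and the 2 calls of smallest p per direction among NONCODE genes, piRNA precursors, X and Y. Of these, 1 gene is not reported here. Members and lists were chosen with earlier results of these data known. Alternatives were other pseudocounts, filters, scalings, variance priors and sets of mice. The fit was tested on simulated data. Same-numbered mice were not paired, since the labels give no litter, day or batch for the numbers. The correlations of their deviations from the age means were 0.012, 0.024 and 0.014 over 13057 genes. For mice of other numbers they lay between -0.061 and 0.054. With so few mice these values cannot show whether the numbers share a litter or day.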

Additional observations from a re-analysis of the deposited data

Results flagged for a closer look

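In the 5 mice of 10 dpp, 104 sets of values (the named genes, the summed lists and the number of genes at 3 TPM or more) were searched for a mouse far from the other 4 by Dixon's criterion, which flags about 1 in 20 sets by chance, and 6 were found. Mouse 4 had 207.1 TPM of H1f0, where the median of the other 4 mice was 176.6 TPM. The other 5 all concerned mouse 2. It had 56.32 TPM of Lmna, where the others had a median of 42.39 TPM, and 10.88 TPM of Prrg1, where they had 14.55 TPM. It also had 13240 TPM of mt-Co3 and 12820 TPM of mt-Co2, where they had 15230 and 14390 TPM, and 79810 TPM over all mitochondrially encoded genes, where they had 90620 TPM. These last 3 are not independent of each other.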

How the results depend on the processing

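The number of genes differing between 10 and 8 dpp was 245, with 199 higher and 46 lower at 10 dpp. It fell to 129 (96 higher) with only the 8 mice of 8 and 10 dpp. With the mouse number as a replicate block it fell to 131 (110 higher, 21 lower). The labels do not say what the mouse numbers stand for. Median-of-ratios scaling raised the falls to 78. Leaving out 1 mouse at a time gave between 106 and 205 genes, between 87 and 166 higher and between 19 and 44 lower (the lowest without mouse 1 of 8 dpp, and 23 lower without mouse 5 of 10 dpp). The difference in genes at 3 TPM or more was -114.9, and -139.7 (exact permutation p = 0.0357) with median-of-ratios scaling, and turned to 67.0 (exact permutation p = 0.107) when genes at 10 TPM or more were counted. Without 1 mouse at a time it lay between -160.9 and -50.67. With mice 1 to 3 of each age alone 197 genes were called, 138 of them among the 245, and with that set of numbers as a covariate 214. Of 24 called genes named by the rule, 9 kept their call in all 21 alternatives and 15 lost it in at least 1. No call turned its direction in any. Beside cholesterol synthesis, 1 called member appeared in glycolysis and in Sertoli markers with mice 1 to 3 alone, in heat shock with the 8 mice alone, and in red blood cell markers without mouse 1 of 8 dpp. The depth of the libraries is unknown, so no counting error could be given.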
